A study of Mus musculus with 4 samples.

Results

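Collagen chain genes were examined in endometriotic lesions of mice, growths of endometrium at sites other than the uterus. The members were all genes whose symbol has the form Col, a number, a, a number, among the probe sets annotated to exactly 1 symbol. There were 42 such genes with 82 probe sets, of 18193 genes in all, and the brightest probe set stood for each gene. The deposited values were linear probe set intensities from Affymetrix 3′ expression arrays, and log2 was taken before any comparison. Of the 42 genes, 34 reached a geometric mean intensity of 33.9, the 40th percentile of all probe sets other than controls, and were tested among 12797 genes. Mice fed casein, the labelled control diet, gave 2 arrays and mice fed a high-fat diet gave 2. The sources used here do not give strain, age, the content of the diets or the number of animals or lesions behind an array. The p-values therefore measure only the spread between these samples, which may be technical. The series title names redox and inflammatory status of the lesions as its subject, and differences are given throughout as high-fat minus casein.

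Collagens are extracellular proteins built of 3 chains wound into a triple helix. Fibrillar collagens assemble into the rope-like fibrils that give connective tissue and scars their strength, and type IV collagen forms the sheet-like network of basement membranes under epithelia and around vessels, muscle and fat cells. Other collagens decorate fibrils, form beaded filaments or span cell membranes. In endometriosis, collagen is deposited around the ectopic glands and stroma as fibrotic tissue.

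The lesion label was checked against markers. All 8 endometrial stroma markers and all 8 endometrial epithelium markers on the array passed the filter, with Esr1, the estrogen receptor gene, between 3319 and 4046 and Epcam, an epithelial adhesion gene, between 813 and 2059 on the 4 arrays. Passing the filter is a weak check, since 12797 of 18193 genes did so. Casein diet replicate 1 was the highest array for 6 of the 8 epithelium markers. Whether the epithelial signal was endometrial was not tested. Stomach and skeletal muscle markers were uneven over the arrays, and which cells gave these signals was not tested. Casein diet replicate 1 had the highest stomach markers (Gkn2 at 14933, against 2548 in casein diet replicate 2 and at most 22.3 under high-fat feeding), and high-fat diet replicate 1 had the highest skeletal muscle markers (Ttn at 4053, against at most 43.6 elsewhere). Casein diet replicate 2 correlated more closely with both high-fat diet arrays (r = 0.961 and 0.976) than with casein diet replicate 1 (r = 0.954), where r is taken across genes and genes are not replicates. The 3′ minus 5′ log2 signal of Gapdh, a sign of RNA integrity, was 0.98 to 1.19 on the 4 arrays. The part of these tissues in any collagen difference was not tested. Both casein arrays thus held 5 of 6 tested stomach markers above the high-fat ones. The exception was Atp4b, at 41.5 to 46.6 on the 4 arrays. Some of these markers passed the filter only through their casein values, so their direction was set by the filter. Gkn1 and Gkn2, for example, read at most 26.6 and 22.3 under high-fat feeding. In bulk tissue, fewer cells of a type and less RNA per cell cannot be told apart.

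Sequence upstream of the start was available from RefSeq (GRCm38.p6) for 33 of the 42 genes. The windows shown are examples, from 1 type IV pair (Col4a5 and Col4a6) and from Col18a1, Col1a2 and Col3a1. Those of the other type IV pairs are not shown. Type IV chain genes lie in neighbouring pairs with no other protein-coding gene between them and had like differences within each pair. Type I and III genes of fibrils had differences near 0. Whether the windows bear on these differences was not tested. Col4a1 and Col4a2 lie on chromosome 8, Col4a3 and Col4a4 on chromosome 1 and Col4a5 and Col4a6 on chromosome X, and for the first and the third pair the table gives opposite strands. Each window ends before the table's start or, where that comes first, before the outermost annotated start of the gene, and capitals mark 3 motifs on either strand. They are the TATA box, searched as TATAAA, the CAAT box, searched as the letters CCAAT, and the GC box of Sp1-type factors, searched as GGGCGG.
Col4a5 (chrX:141475169-141475369, plus strand): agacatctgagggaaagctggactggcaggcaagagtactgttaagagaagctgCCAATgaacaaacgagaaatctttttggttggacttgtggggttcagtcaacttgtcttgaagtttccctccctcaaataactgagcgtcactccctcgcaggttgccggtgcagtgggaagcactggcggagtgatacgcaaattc
Col4a6 (chrX:141474096-141474326, minus strand): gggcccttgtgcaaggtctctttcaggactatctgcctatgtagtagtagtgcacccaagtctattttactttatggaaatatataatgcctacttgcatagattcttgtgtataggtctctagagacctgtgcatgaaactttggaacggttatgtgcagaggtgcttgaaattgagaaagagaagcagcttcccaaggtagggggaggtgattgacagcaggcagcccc
Col18a1 (chr10:77166531-77166780, minus strand): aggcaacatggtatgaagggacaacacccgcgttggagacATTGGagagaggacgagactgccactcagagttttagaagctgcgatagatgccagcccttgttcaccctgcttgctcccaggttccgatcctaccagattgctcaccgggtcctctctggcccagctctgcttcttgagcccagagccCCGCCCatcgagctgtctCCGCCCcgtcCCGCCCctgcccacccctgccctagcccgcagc
Col1a2 (chr6:4505368-4505617, plus strand): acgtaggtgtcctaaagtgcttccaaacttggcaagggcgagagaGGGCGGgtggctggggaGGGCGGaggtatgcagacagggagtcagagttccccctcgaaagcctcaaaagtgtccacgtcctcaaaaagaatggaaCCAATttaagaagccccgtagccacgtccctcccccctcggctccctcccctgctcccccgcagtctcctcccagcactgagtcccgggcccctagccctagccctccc
Col3a1 (chr1:45311288-45311537, plus strand): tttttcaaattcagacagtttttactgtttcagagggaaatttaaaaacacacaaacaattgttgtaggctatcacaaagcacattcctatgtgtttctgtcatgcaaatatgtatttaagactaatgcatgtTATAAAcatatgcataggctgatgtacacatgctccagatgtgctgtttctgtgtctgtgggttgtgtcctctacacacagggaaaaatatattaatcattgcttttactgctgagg
Col18a1 held 3 GC boxes and 1 CAAT box in its window, and Col1a2 held 2 and 1. Col3a1 held 1 TATA box. The window of Col24a1, read as well but not shown, held 0 matches. The windows of Col4a5 and Col4a6 are shorter, 201 and 231 bases, because 49 and 19 bases next to the table's start lie within the annotated gene and are not shown. The shown part held 1 CAAT box for Col4a5 and 0 matches for Col4a6, while over their full windows both genes held a GC box. Over the full 250 bases before the start, the GC box occurred in 20 of the 33 collagen windows and in 32.7% of all 32851 windows in the table. The CAAT box occurred in 12 of the collagen windows and 33.8% of all, and the TATA box in 5 and 12.4%. All windows outnumber the 18193 genes on the array, so they are not a matched background for the collagens. None of the 3 motifs contains another, and a match is a description of the sequence only.

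No collagen chain gene passed the test. The adjusted p was at least 0.856 for all 34 (limma, Benjamini-Hochberg over 12797 genes), and the share called among all genes was 0% (0 genes, smallest adjusted p = 0.823). At an unadjusted p under 0.05 there were 2 collagens with larger values under high-fat feeding, Col23a1 and Col4a1 (5.88% of 34, against 2.24% of all genes), and 1 with smaller values, Col6a4 (2.94%, against 2.73%). Over all genes tested 636 had such a p. Both arrays of high-fat feeding lay above both of the casein diet for 11 of 34 collagens (32.4%, against 16.6% of all genes) and below them for 4 (11.8%, against 19.3%). With 2 arrays against 2 an exact two-sided permutation test cannot give a p below 0.333.

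The median log2 difference was 0.10 over the 34 collagens and -0.01 over all genes tested. It was 0.52 for 8 basement membrane collagens, 0.06 for 9 fibrillar collagens and 0.01 for 17 others. The shares of single arrays were uneven. Casein diet replicate 1 was the lowest array for 18 of 34 collagens (52.9%, against 34.6% of all genes), and high-fat diet replicate 1 was the highest for 19 (55.9%, against 23.4%). These are the arrays with the highest stomach and the highest skeletal muscle markers. Without replicate 1 of either diet, the 2 arrays numbered 2 gave a median of -0.16 for all 34, 0.19 for basement membrane collagens, -0.18 for fibrillar ones and -0.33 for the others, a comparison of 1 array with 1 and so without a test. It is not free of stomach marker signal, since casein diet replicate 2 read 4690 for Tff1, a stomach mucosa gene, against 162 and 179 under high-fat feeding. The stomach markers Atp4b, at 41.5 to 46.6 on the 4 arrays, and Atp4a, below the filter at 18.1 to 27.0, showed no such rise.

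**Figure D1:**
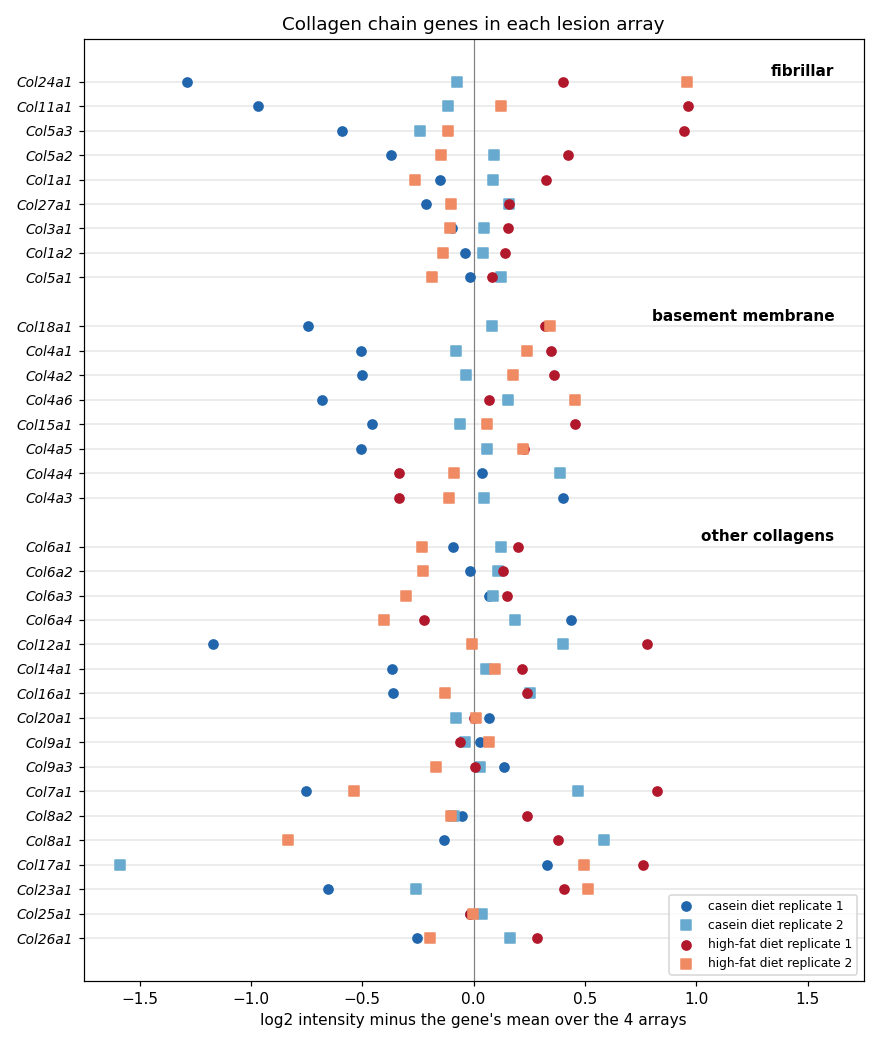
Log2 intensity of each tested collagen gene in each of the 4 arrays, minus the mean of that gene over the arrays, grouped by class. Blue points are the casein diet and red points the high-fat diet. Casein diet replicate 1 is the lowest array for 18 of 34 genes and high-fat diet replicate 1 the highest for 19.

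Among the fibrillar collagens, the major chains of interstitial fibrils were nearly level between diets. Col1a1 and Col1a2 encode the chains of type I collagen, and Col3a1 the type III collagen of loose connective tissue. The intensities of Col1a1 were 1158 and 1366 under casein feeding and 1612 and 1073 under high-fat feeding, with the 2 high-fat arrays on either side of the casein ones. For Col1a2 they were 14649.9 and 15489, and 16586 and 13677, and for Col3a1 14475 and 15997, and 17209.6 and 14385. The log2 differences were 0.06 (SE 0.25) for Col1a1, -0.0002 (SE 0.14) for Col1a2 and 0.05 (SE 0.14) for Col3a1. The 95% intervals ran from -0.63 to 0.76, from -0.39 to 0.39 and from -0.35 to 0.44, so a change of type I or III mRNA within those limits would not have been seen. In all 3 genes the groups overlapped, with high-fat diet replicate 1 the highest array. The highest intensity of any probe set was 21720, and those of Col1a2 and Col3a1 were not far below it. Dimmer probe sets gave 0.19 for Col1a1, 0.14 and 0.16 for Col1a2 and 0.20 for Col3a1.

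Type V and XI chains join these fibrils and limit their thickness. Col5a1 had a log2 difference of -0.11 (SE 0.14) and Col5a2 of 0.28 (SE 0.28), each with overlapping groups. A second, dimmer probe set of Col5a2 gave 0.63, with both high-fat arrays above both casein arrays. Further probe sets of Col5a1 gave -0.05 and -0.13, again with overlap. Col11a1 had intensities of 188 and 340 under casein feeding and 717 and 401 under high-fat feeding (log2 difference 1.08, SE 0.44, unadjusted p = 0.0741 and adjusted p = 0.863 in limma). Its second probe set gave 1.03. Col5a3 had 128 and 164 under casein feeding and 373 and 179 under high-fat feeding (0.83, SE 0.41). For both genes the groups did not overlap, but high-fat diet replicate 1 lay far above the rest. Without that array the differences were 0.66 for Col11a1 and 0.30 for Col5a3, and Col11a1 was also at 0.66 without casein diet replicate 1. A second, dim probe set of Col5a3 gave 0.01. Skeletal muscle markers were highest in the same array for 9 of 9 tested, but some, such as Myh1, Myh4 and Actn3, passed the filter only through that array. The part of muscle in these values was not tested.

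Col24a1, a fibrillar chain described in bone and cornea, had the largest difference of all collagens tested. Its intensities were 30.8 and 71.4 under casein feeding and 99.4 and 146 under high-fat feeding. That is a log2 difference of 1.36 (SE 0.49, 95% interval -0.03 to 2.75, unadjusted p = 0.0533 and adjusted p = 0.863 in limma), or 2.57-fold. The groups did not overlap, but the casein arrays were further apart than casein diet replicate 2 was from the nearer high-fat array. Leaving out casein diet replicate 1 gave 0.75 and leaving out casein diet replicate 2 gave 1.97. Col27a1, a cartilage-associated chain, had 0.06 (SE 0.19). Col2a1 and Col11a2, best known from cartilage, stayed at 20.8 to 26.4 on all arrays, below the filter. Of 7 cartilage markers 1 passed the filter, the transcription factor gene Sox9.

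Basement membrane collagens had the largest median difference of the 3 classes, with 6 of 8 above 0 and both directions within type IV. Col4a1 and Col4a2, which together form the type IV trimer found in nearly all basement membranes, had larger values under high-fat feeding. The intensities of Col4a1 were 1702 and 2288 under casein feeding and 3072 and 2856 under high-fat feeding, and those of Col4a2 were 943 and 1303, and 1716 and 1512. Both high-fat arrays lay above both casein arrays for each gene. The log2 difference was 0.59 for Col4a1 (SE 0.18, 95% interval 0.07 to 1.10, unadjusted p = 0.035) and 0.54 for Col4a2 (SE 0.20, interval -0.03 to 1.11, unadjusted p = 0.059), each with an adjusted p of 0.863 in limma. A second probe set of Col4a1 gave 0.57. Leaving out 1 array in turn gave 0.37 to 0.80 for Col4a1 and 0.31 to 0.77 for Col4a2, lowest without casein diet replicate 1.

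Col4a5 and Col4a6 form the type IV trimer known from smooth muscle and some epithelial basement membranes. Col4a5 had intensities of 966 and 1433 under casein feeding and 1605 and 1602 under high-fat feeding, a log2 difference of 0.45 (SE 0.22). Col4a6 had 139 and 248, and 233 and 305, a difference of 0.52 (SE 0.35). High-fat diet replicate 1 lay below casein diet replicate 2 for Col4a6, so its groups overlapped, while those of Col4a5 did not. Without casein diet replicate 1 the differences were 0.16 and 0.11. The second probe sets gave 0.38 for Col4a5 and 0.32 for Col4a6. With these the groups overlapped for Col4a5 and did not for Col4a6, so the overlap depended on the probe set. Smooth muscle markers had smaller values under high-fat feeding in 10 of 10 genes, with a median of -0.76. Their mean deviation from the 4-array mean was 0.24 and 0.53 under casein feeding and -0.26 and -0.51 under high-fat feeding. The part of smooth muscle in the Col4a5 and Col4a6 values was not tested.

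Col4a3 and Col4a4, whose chains join that of Col4a5 in the type IV network of the kidney glomerulus, lung and inner ear, had smaller values under high-fat feeding. The intensities of Col4a3 were 104 and 81.4 under casein feeding and 62.5 and 72.9 under high-fat feeding, and those of Col4a4 were 145 and 185, and 112 and 133. All values of high-fat feeding were below those of the casein diet for each gene. The log2 differences were -0.45 (SE 0.18, unadjusted p = 0.0672) and -0.42 (SE 0.18, unadjusted p = 0.0796), each with an adjusted p of 0.863 in limma. The second probe set of Col4a3, below the filter, gave -0.35, and the 2 further probe sets of Col4a4 gave -0.47 and -0.23. Without casein diet replicate 1 the difference of Col4a3 was -0.27, and without casein diet replicate 2 that of Col4a4 was -0.25. Both probe sets of Col4a3 and all 3 of Col4a4 were lower on both high-fat arrays. Endometrial epithelium markers were below 0 in 8 of 8 genes (median -0.80) and stomach markers in 6 of 6 (median -5.45). Casein diet replicate 1 was the highest array for 6 and 5 of them. Some stomach markers, such as Gkn1 and Gkn2, passed the filter only through the casein arrays, so their direction was set by the filter. Col4a3 was highest in casein diet replicate 1 and Col4a4 in casein diet replicate 2. The part of these tissues in the Col4a3 and Col4a4 values was not tested.

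**Figure D2:**
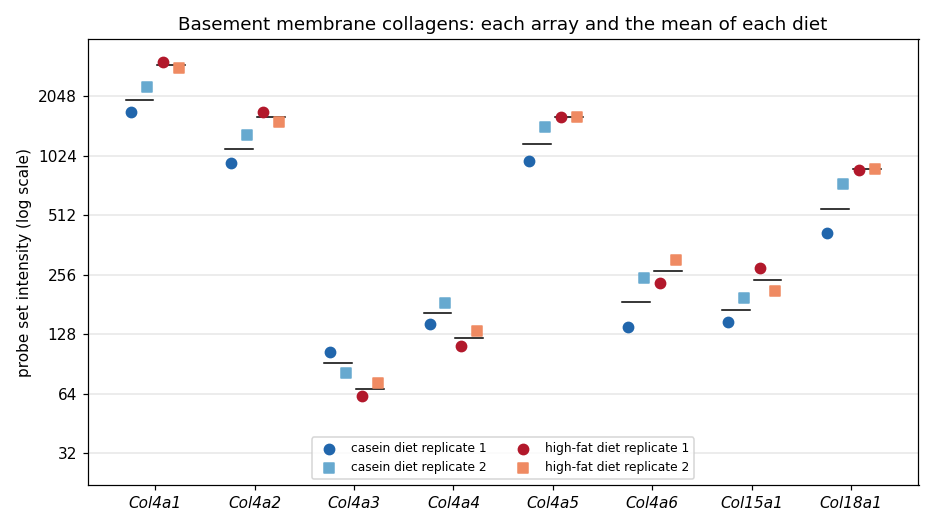
Probe set intensity (log scale) of the basement membrane collagens on each array, with a black line at the geometric mean of each diet. Both high-fat diet arrays are above both casein diet arrays for Col4a1, Col4a2, Col4a5, Col15a1 and Col18a1 and below them for Col4a3 and Col4a4, and the groups overlap for Col4a6. Heights of different genes are not comparable, since probe sets differ in brightness.

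Col15a1 and Col18a1 encode collagens of the basement membrane zone that carry sugar side chains, and the end of the Col18a1 chain is cut to give endostatin, an inhibitor of vessel growth. Col15a1 had intensities of 148 and 194 under casein feeding and 278 and 211 under high-fat feeding (log2 difference 0.52, SE 0.22). Col18a1 had 415 and 737, and 869 and 883 (0.66, SE 0.31), and its second probe set gave 0.57. The groups did not overlap for either gene, but casein diet replicate 1 was the lowest array for both, and without it the differences were 0.32 and 0.25. Casein diet replicate 1 was the lowest array for 6 of the 8 basement membrane collagens. Endothelial markers, of the cells that line vessels and rest on such membranes, were above 0 in 10 of 10 genes (median 0.41). Their mean deviation was -0.39 and -0.08 under casein feeding and 0.15 and 0.32 under high-fat feeding, beside -0.37 and 0.07, and 0.14 and 0.16, for the basement membrane collagens. Endometrial stroma markers, 4 of 8 above 0 (median 0.34), had a mean deviation of -0.41 and 0.15 under casein feeding and 0.16 and 0.10 under high-fat feeding. Adipocyte markers were above 0 in 4 of 4 tested (median 1.07), with -0.61 and -0.58, and -0.03 and 1.22. Fabp4 (1.47) and Car3 (2.47) did not overlap between diets. Adipoq (0.12) and Retn (0.67) did, with high-fat diet replicate 1 the lowest array for both. Adipoq read 107 and 91.4 under casein feeding and 33.1 and 348 under high-fat feeding. Cidec and Lep were below the filter. The part of these cell types in the basement membrane values was not tested.

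Type VI collagen forms beaded filaments around cells. Its abundant chains Col6a1, Col6a2 and Col6a3 had log2 differences of -0.03 (SE 0.20), -0.09 (SE 0.16) and -0.16 (SE 0.19), and for each the groups overlapped. High-fat diet replicate 1 was the highest array for all 3 and high-fat diet replicate 2 the lowest, as for Col6a3 with 6305 and 6399 under casein feeding and 6672 and 4869 under high-fat feeding. Col6a4 stood apart from them. Its intensities were 2079 and 1750.0 under casein feeding and 1318 and 1163 under high-fat feeding, a log2 difference of -0.62 (SE 0.14, 95% interval -1.03 to -0.22, unadjusted p = 0.0132 and adjusted p = 0.863 in limma), or 0.649 of the casein level. Both high-fat arrays were below both casein arrays, and leaving out 1 array in turn gave -0.75 to -0.50. A dim second probe set gave -0.51. Col6a5, a related long chain, was below the filter, at 15.6 and 18.8 under casein feeding and 11.6 on both arrays of high-fat feeding.

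The transmembrane collagens sit in the cell surface with their triple helix outside. Col23a1 had the smallest p of all collagens. Its intensities were 66.8 and 87.9 under casein feeding and 139 and 150.2 under high-fat feeding, both above both casein arrays. The log2 difference was 0.92 (SE 0.17, 95% interval 0.43 to 1.41, unadjusted p = 0.00698 and adjusted p = 0.856 in limma), or 1.89-fold. Its 2 other probe sets gave 0.47 and 1.23, again without overlap, and leaving out 1 array in turn gave 0.72 to 1.11. Col17a1, the hemidesmosome collagen that anchors epithelial cells, had 77.3 and 20.5 under casein feeding and 104 and 86.7 under high-fat feeding. Its log2 difference of 1.26 (SE 0.71) rested on casein diet replicate 2, and without that array it was 0.30, against 2.21 without casein diet replicate 1. Col25a1 had -0.02 (SE 0.09). Col13a1, below the filter, had 26.4 and 27.6, and 32.9 and 34.7.

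Fibril-associated collagens bind the surface of fibrils. Col12a1 had intensities of 315 and 934 under casein feeding and 1212 and 704 under high-fat feeding, and Col14a1 had 461 and 618, and 691 and 635. The groups overlapped for Col12a1 (log2 difference 0.77, SE 0.64) and did not for Col14a1 (0.31, SE 0.18). Casein diet replicate 1 was the lowest array for both, and without it the differences were -0.02 and 0.10. Col16a1 had 0.11 (SE 0.27) and the dim genes Col9a1, Col9a3 and Col20a1 had 0.01, -0.16 and 0.01. Col9a2 and Col19a1 were below the filter, at 9.84 to 20.5 on all arrays. Col22a1, known from the junction of muscle and tendon, was represented by a probe set just below the filter with 32.4 to 34.9 on all arrays. Its other 2 probe sets, dimmer still, read 13.9 and 23.2 under casein feeding and 52.7 and 33.1 under high-fat feeding, and 14.4 and 14.1, and 22.8 and 21.2. Both were highest in high-fat diet replicate 1, the array with the highest skeletal muscle markers, the second of them by little. The part of muscle in these values was not tested.

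Of the network-forming and anchoring collagens, none differed beyond the spread of its arrays. Col7a1, which anchors epithelium to the tissue beneath it, had 246 and 573 under casein feeding and 734 and 286 under high-fat feeding (log2 difference 0.29, SE 0.67). Col8a1, a vessel wall collagen, had 185 and 304, and 263 and 114 (-0.45, SE 0.52), and its partner chain Col8a2 had 0.14 (SE 0.15). For Col7a1 the arrays of each diet lay further apart than the diet means. Col26a1 had 0.09 (SE 0.25), and Col10a1, a marker of growth plate cartilage, stayed at 9.33 to 10.8.

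**Figure D3:**
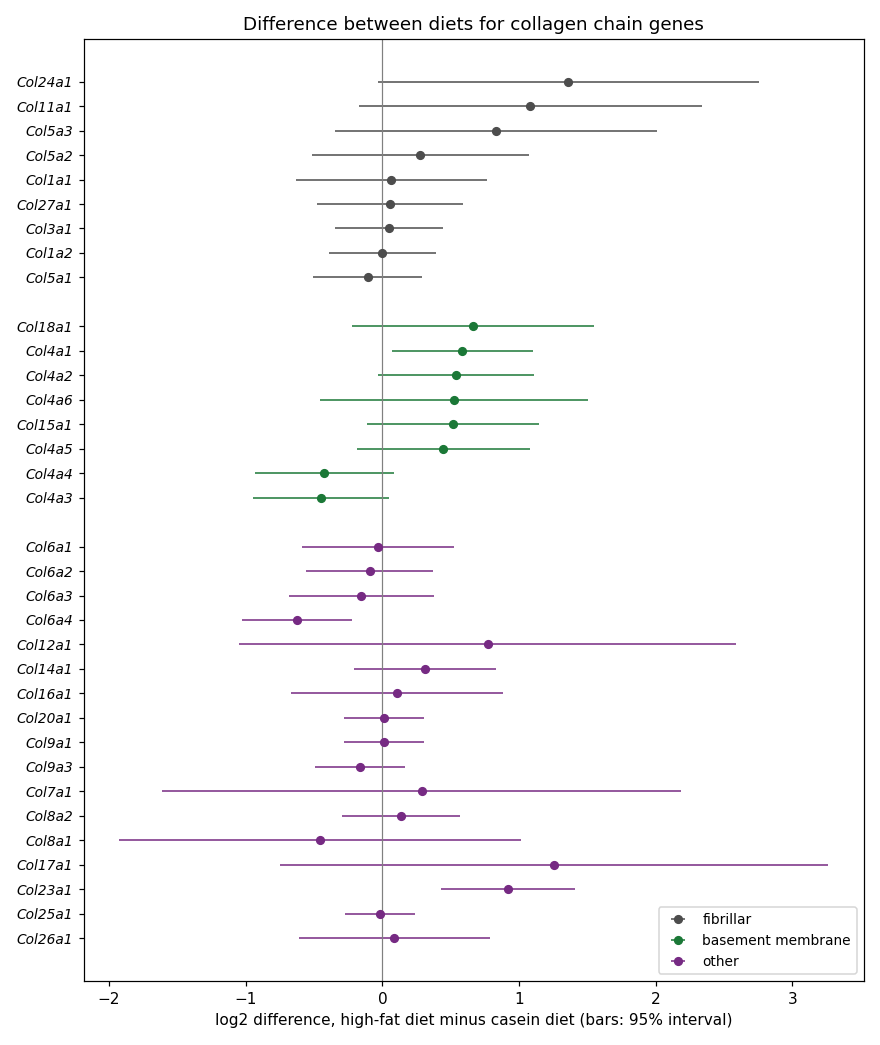
Log2 difference of high-fat diet minus casein diet for the 34 tested collagen genes, with limma's 95% interval as bars and class by colour. The interval lies above 0 for Col4a1 and Col23a1 and below 0 for Col6a4, and spans 0 for the others. None passed after adjustment over all genes.

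Genes with more than 1 probe set gave a measure of technical error. For 18 collagens 2 probe sets passed the filter, and the differences had the same sign in 17. The exception was Col1a2, whose brightest probe set was at -0.0002. For the 12 genes whose brightest probe set differed by more than 0.25, the second had the same sign in all 12, although Col5a3 had 0.83 and 0.01. Probe sets of a gene are read on the same arrays, so their agreement says nothing about the spread between lesions. Probe sets whose name ends in _s_at or _x_at, such as that of Col20a1, can bind more than 1 transcript.

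**Figure D4:**
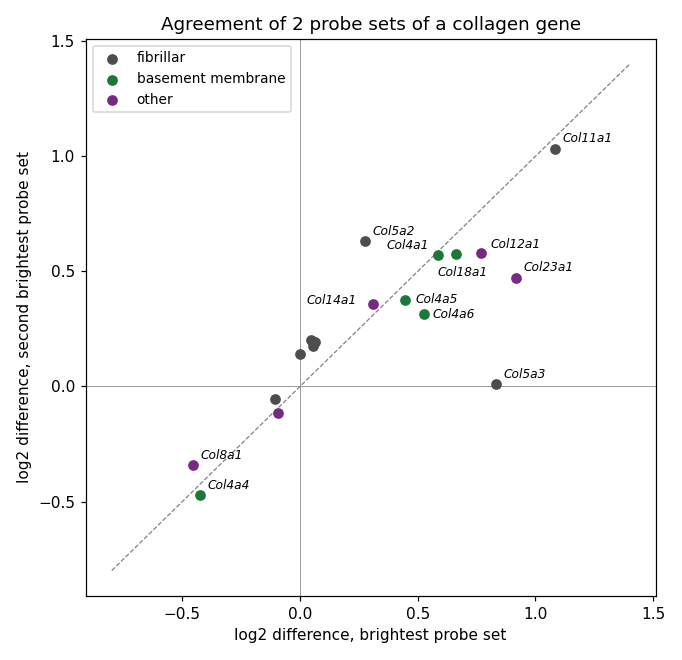
Log2 difference of high-fat diet minus casein diet from the brightest (horizontal) and second brightest (vertical) probe set of each collagen gene with 2 probe sets above the filter, with a dashed line of equality. The 2 values have the same sign for 17 of 18 genes. Col5a3 lies furthest below the line, with 0.83 and 0.01.

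Genes that make, bind and degrade collagen were listed by role. Of 27 tested genes of procollagen folding, secretion and cross-linking, 16 were above 0 and 11 below, with a median of 0.01, and 2 (both higher) had an unadjusted p under 0.05, as did 2.24% of all genes in that direction. These were Pcolce, which speeds the trimming of procollagen ends, with 1131 and 1315 under casein feeding and 1792 and 1947 under high-fat feeding (log2 difference 0.61, SE 0.13, unadjusted p = 0.00928 and adjusted p = 0.863 in limma), and the cross-linking enzyme gene Lox (0.42, SE 0.11). Both high-fat arrays lay above both casein arrays for each. The cartilage-associated protein gene Crtap and the lysyl hydroxylase gene Plod1 had 0.32 (SE 0.16) and 0.33 (SE 0.20). Crtap was at 0.14 without casein diet replicate 1, and Plod1 at 0.0905 without high-fat diet replicate 1 and at 0.0300 with its second brightest probe set. The collagen chaperone gene Serpinh1 was at 0.01 (SE 0.17).

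Among 16 fibril-binding matrix proteins 6 were above 0 and 10 below (median -0.06). Thbs2, a thrombospondin, had 292 and 425 under casein feeding and 1109 and 641 under high-fat feeding (log2 difference 1.26, SE 0.36), and the small proteoglycan gene Ogn had 2876 and 2457, and 1209 and 1683 (-0.90, SE 0.21). The matrix gene Fbln1 had 0.43 (SE 0.17) and the proteoglycan gene Podn -0.24 (SE 0.10). None of these groups overlapped, and Fbln1 was at 0.28 without high-fat diet replicate 2. Of 13 collagen receptors 7 were above 0 and 6 below (median 0.04). Antxr2 and Antxr1, receptors that bind collagen, had 0.53 (SE 0.15) and 0.49 (SE 0.24), the integrin gene Itga10 0.34 (SE 0.26) and the endocytic receptor gene Mrc1 -0.12 (SE 0.10). Without casein diet replicate 1 Itga10 was at 0.0322, and without high-fat diet replicate 1 Antxr1 was at 0.25 and Mrc1 at -0.0637.

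Basement membrane genes other than collagens had a median of 0.19, with 11 of 16 above 0, and 6 of 16 lay higher without overlap and 1 lower, beside 16.6% and 19.3% of all genes. The nidogen gene Nid2, whose protein links laminin to type IV collagen, had 63.3 and 76.9 under casein feeding and 106 and 100.4 under high-fat feeding (log2 difference 0.57, SE 0.14, unadjusted p = 0.0163 and adjusted p = 0.863 in limma). The laminin chain genes Lamb1, Lama4 and Lama2 had 0.43 (SE 0.12), 0.41 (SE 0.16) and 0.57 (SE 0.28). Without casein diet replicate 1 Lama4 was at 0.24 and Lama2 at 0.20. For all 4 genes both high-fat arrays lay above both casein arrays, as they did for Col4a1 and Col4a2. For 12 of these 16 genes and 4 of the 6 type IV chains the lowest array was casein diet replicate 1.

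Of 13 genes of collagen degradation and its inhibition 10 were above 0 (median 0.49), beside 48.6% of all genes. The list includes the metalloprotease inhibitor genes Timp1, Timp2 and Timp3, at 0.06, 0.22 and -0.28. The collagenase genes Mmp13 and Mmp8, which cut fibrillar collagen, had 3.66 (SE 0.40) and 2.31 (SE 0.35), Mmp2 0.84 (SE 0.44) and the cathepsin gene Ctsl 0.70 (SE 0.36). The intensities of Mmp13 were 38.9 and 63.2 under casein feeding and 831 and 471 under high-fat feeding. Those of Mmp8 were 19.9 and 23.4, and 147 and 78.1. Mmp8 thus passed the filter only through its high-fat values, and its casein values were dim. Without casein diet replicate 1 Mmp2 was at 0.32 and Ctsl at 0.21. In the same arrays the type I and III collagen genes, whose products these collagenases cut, had the differences near 0 given above. Fibroblast markers, of the cells that make most fibrillar collagen, were above 0 in 9 of 12 genes (median 0.20), with a mean deviation of -0.26 and 0.02 under casein feeding and 0.16 and 0.08 under high-fat feeding. Within them the platelet-derived growth factor receptor genes Pdgfra and Pdgfrb had 0.61 and 0.59, and the matrix genes Dcn and Lum were at -0.11 and -0.01. No gene of these lists passed after adjustment over all genes.

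**Figure D5:**
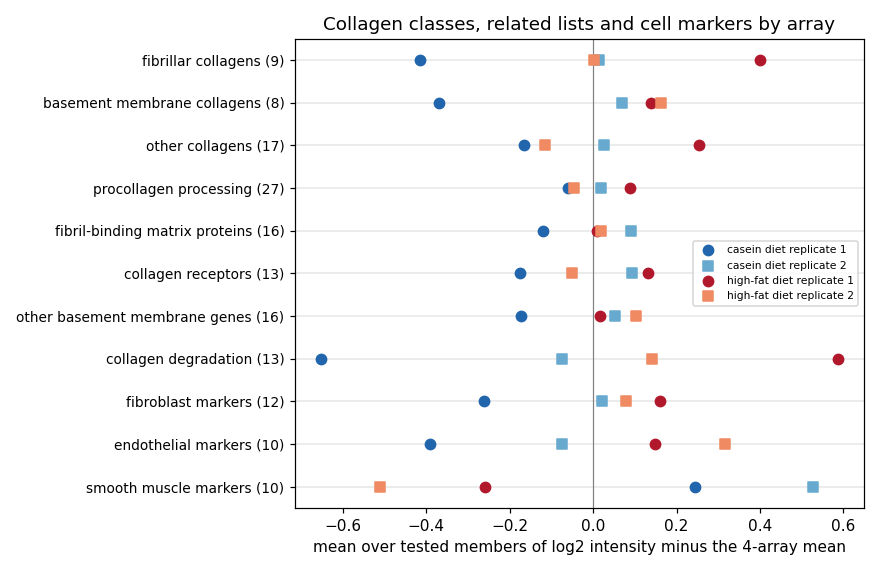
Mean over tested members of the log2 intensity minus each gene's 4-array mean, for collagen classes, related gene lists and cell markers, with the number of genes in brackets and 1 point per array. Casein diet replicate 1 is the lowest array for every list shown except smooth muscle markers, where high-fat diet replicate 2 is the lowest.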

How the data were processed

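Lesion RNA was read on Affymetrix 3′ arrays (45101 probe sets, 64 of them controls). The deposited table holds linear intensity values, and the submitters' processing notes name GCOS and RMA without giving their roles. Median intensity was 55.1 to 56.5 on the 4 arrays, whose number limits the precision. The authors' deposited intensities were used as given, and log2 was taken here from these deposited values. Platform annotation gave 1 symbol for 34945 probe sets, several for 932 and none for 9160, and 34741 matched a gene of GRCm38.p6. The probe set with the highest mean log2 stood for each gene. Genes above the 40th percentile were fitted in limma 3.58.1 (R 4.3.3) with 1 coefficient per diet and empirical Bayes (prior degrees of freedom 1.8), with Benjamini-Hochberg adjustment over 12797 genes and a threshold of 0.05. The script was tested on simulated data. All collagens were described, and each related list names the 4 tested members with the smallest unadjusted p. Markers were named where their level moved with a collagen result or to check the tissue. Serpinh1, Pdgfra, Pdgfrb, Dcn and Lum were chosen after their values were seen. The members and lists were chosen with earlier results of these data known. Col6a6 and Col28a1 were not analysed here. Figures were drawn with matplotlib 3.10.9.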

Additional observations from a re-analysis of the deposited data

How the results depend on the processing

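No collagen passed the threshold under any alternative run (centring, quantile normalization, pseudocount, filters, probe set choice, replicate block, arrays left out). Leaving out 1 array gave 0 to 17 genes of all those tested, 17 without casein diet replicate 2 and none of them a collagen; the remaining lone array was assumed to vary like the others. Replicate numbers share only a number (r of deviations -0.022): with a replicate block 0 genes passed (smallest adjusted p = 0.911 in limma); in this balanced design the block cannot move a difference, so the collagen median of 0.0985 is the same by construction. Leave-one-out medians ran from -0.0243 to 0.32 for all collagens, -0.0751 to 0.36 for fibrillar and 0.21 to 0.75 for basement membrane ones. Without replicate 1 of either diet, chosen after seeing the data, medians were -0.16 for all, 0.19 for basement membrane and -0.33 for other collagens. Of 34 genes 16 kept their sign in every alternative and 18 did not; the cause was not tested. Col1a2 became 0.0105 with quantile normalization, 0.10 as a mean of probe sets and 0.14 with the second brightest. In the same order Col20a1 became -0.0002, -0.0386 and -0.0892. Mean and second brightest gave 0.22 and 0.47 for Col25a1, -0.0369 and -0.16 for Col26a1, and -0.0648 and -0.14 for Col9a1, which was -0.0006 with median centring. Leave-one-out ranges that crossed 0 were -0.0153 to 1.55 for Col12a1, -0.20 to 0.41 for Col16a1, -0.23 to 0.36 for Col1a1, -0.14 to 0.14 for Col1a2, -0.0649 to 0.0860 for Col20a1, -0.0461 to 0.0053 for Col25a1, -0.15 to 0.33 for Col26a1, -0.13 to 0.24 for Col27a1, -0.0811 to 0.18 for Col3a1, -0.24 to 0.0262 for Col5a1, -0.0077 to 0.56 for Col5a2, -0.25 to 0.18 for Col6a1, -0.27 to 0.0872 for Col6a2, -0.38 to 0.0709 for Col6a3, -0.39 to 0.97 for Col7a1, -1.06 to 0.15 for Col8a1, -0.0334 to 0.31 for Col8a2 and -0.0569 to 0.0755 for Col9a1.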
